A study of Sus scrofa with 12 samples.

Results

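The RNA content of pig (Sus scrofa) oocytes at the late times of maturation in vitro, 28 and 44 h, was compared with that at the early times, 0 and 12 h. The mean of the 28 h and 44 h group means was set against the mean of the 0 h and 12 h group means, gene by gene. Results given without a time, or with it left out, come from the same fit of all 12 libraries with no weight on that time. A single library left out was removed before fitting. All 12 of the series' 12 libraries took part: the late side has 3 libraries of 28 h, numbered 2, 3 and 4, with 3 of 44 h, numbered 1, 2 and 4, and the early side has 3 of 0 h, numbered 2, 3 and 4, with 3 of 12 h, numbered 1, 3 and 5. The 4 groups differ, as far as the labels say, only in the time in culture. They share the species, the cell type (oocytes freed of cumulus cells), the RNA (total RNA) and, per the series title, a maturation medium of chemically defined composition. The labels give neither the number of oocytes in a library nor the age of the donors, and do not tell whether replicates are separate cultures, so the p-values below reflect spread among libraries that may be technical. No untreated or time-matched control group accompanies the times.

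A fully grown oocyte has stopped most of its transcription and lives on messenger RNA stored during growth. On release from arrest its nuclear envelope, the germinal vesicle, breaks down, the spindle forms, the first polar body is extruded and the cell halts again in the second meiotic metaphase. In pig oocytes the germinal vesicle persists through the early part of culture. Stored transcripts are regulated mainly through their poly(A) tails, which are lengthened on some messages to start translation and shortened on others, and many messages are removed before fertilization. RNA here was sequenced from a total RNA library kit that does not select molecules by their tail.

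Each late library held 21877235 to 26015373 gene counts and each early library 23055288 to 25744280. Of 28965 genes in the deposited table, 12977 passed the filter on low counts. Levels are CPM, counts scaled by library total and TMM factor to a common sum, and so shares of a library: less RNA of a gene in an oocyte and more RNA of all others cannot be told apart. Replicate 5 of 12 h stood apart from the other libraries on the second dimension of a multidimensional scaling, at -1.55, where the other 11 lay between -0.07 and 0.74. Mitochondrially encoded genes took 0.447%, 0.704% and 0.848% of counts at the late times (lowest, median and highest library), against 0.654%, 1.03% and 1.35% at the early times, the last being that 12 h library. On the first dimension the libraries followed time, with 0 h between -0.89 and -0.54, 12 h between -0.55 and -0.06, 28 h between 0.14 and 0.30, and 44 h between 0.64 and 0.88.

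Between late and early times, 1708 of 12977 genes (13.2%) passed edgeR's quasi-likelihood test at a Benjamini-Hochberg adjusted p under 0.05. Of these, 609 (4.69%) were higher at the late times and 1099 (8.47%) lower. The rises were small and lay in abundant transcripts: their median log2 fold change was 0.20 (quartiles 0.17 and 0.25), and their median level was 147 CPM late against 129 CPM early. The falls were larger, with a median of -0.42 (quartiles -0.63 and -0.29). They lay in transcripts scarcer than the rises, with median levels of 27.1 CPM late against 38.2 CPM early. Both groups stood above all tested genes, whose median levels were 19.4 CPM late and 20.4 CPM early. A change of at least 2-fold was seen in 6.57% of the rises (40 genes) and 9.83% of the falls. In 90 of the called rises (0.694% of tested genes) all 6 late libraries lay above all 6 early ones, and in 307 of the called falls (2.37%) all 6 lay below. Whatever their p, 0.909% of tested genes had all 6 late libraries above and 2.43% all 6 below. Without 12 h replicate 5 the test called 1366 genes.

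**Figure D1:**
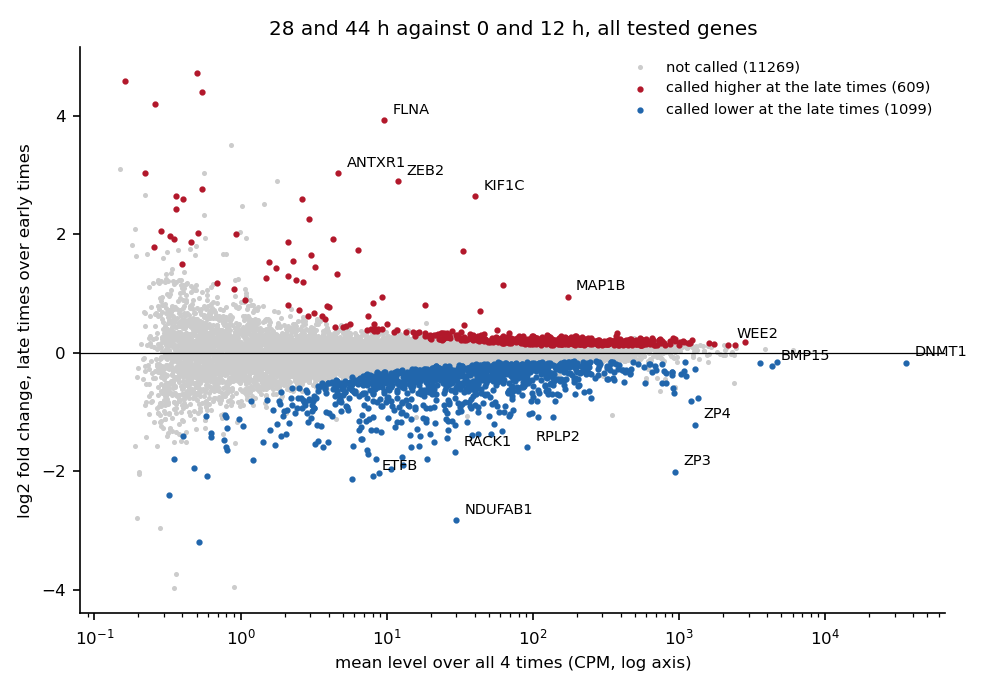
Each point is 1 of 12977 tested genes, with its mean level over all times in CPM on a log axis and its log2 fold change of the late times (28 and 44 h) over the early times (0 and 12 h); red points were called higher at the late times (609) and blue ones lower (1099). Most red points at high level sit close to 0, with a median of 0.20, while the blue points spread further down, with a median of -0.42.

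The largest rise among genes at or above 10 CPM was that of FLNA, filamin A, which crosslinks actin filaments (ENSSSCG00000033299, chromosome X, 124890142 to 124917171, plus strand, build Sscrofa11.1 throughout). Its transcripts stood at 5.72, 20.4 and 26.1 CPM at the late times, against 0.405, 1.07 and 3.03 CPM at the early times, as the lowest, median and highest library of 6. The lowest late library held more than the highest early one, and the means at 0, 12, 28 and 44 h were 0.579, 2.01, 10.6 and 25.2 CPM. The log2 fold change was 3.92 ± 0.31 SE, with an adjusted p of 2.83e-06 in edgeR, 3.30 without the 44 h libraries and 3.03 without those of 0 h. CALD1, caldesmon, which binds actin and calmodulin (ENSSSCG00000016535, chromosome 18, 14267955 to 14539017, minus strand), stood at 19.3, 23.0 and 25.3 CPM at the late times, against 10.1, 12.9 and 17.3 CPM at the early times. Its level dipped at 12 h and was higher at both later times, with means of 16.3, 10.7, 23.7 and 22.5 CPM, and the log2 fold change was 0.81 ± 0.09 SE with an adjusted p of 4.5e-07. LIMK1, a kinase that inactivates the actin-severing protein cofilin, had 125, 141 and 143 CPM at the late times, against 104.5, 111 and 121 CPM at the early times, and the groups did not overlap (log2 fold change 0.30 ± 0.05 SE). TLN1, talin, which ties integrins to actin, had a log2 fold change of 0.33 ± 0.09 SE, but leaving out 28 h replicate 4 (0.25, adjusted p = 0.0721), 44 h replicate 1 (0.29, adjusted p = 0.0565) or any 1 of the 4 times ended the call (0.32 without 12 h, 0.34 without 0 h, 0.38 without 44 h and 0.28 without 28 h).

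KIF1C, a kinesin motor (ENSSSCG00000017900, chromosome 12, 51897763 to 51924437, minus strand), rose 6.22-fold. It stood at 36.4, 64.0 and 95.3 CPM at the late times, against 2.95, 13.8 and 30.6 CPM at the early times. The groups did not overlap, yet the level was highest at 28 h, with means of 3.46, 28.3, 86.3 and 43.98 CPM over the 4 times. The log2 fold change was 2.64 ± 0.10 SE, 3.12 without the 44 h libraries, 2.15 without those of 28 h, 4.15 without those of 12 h and 1.12 without those of 0 h. MAP1B, which binds and steadies microtubules (ENSSSCG00000016974, chromosome 16, 48403526 to 48498896, plus strand), followed the same order of times, with means of 79.9, 165, 255 and 193 CPM. It stood at 188, 222 and 264 CPM at the late times, against 73.9, 122 and 174 CPM at the early times, a log2 fold change of 0.95 ± 0.05 SE that was 1.47 without 12 h and 0.43 without 0 h. The gene models of KIF1C and MAP1B each overlap another gene on the opposite strand (INCA1 and MRPS27), and the strand setting of the authors' counting is not given in the sources used here.

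The other 6 of the 12 largest non-overlapping rises lay between 0.32 and 0.39 on the log2 scale. CHD3, a chromatin remodeller of the NuRD complex, stood at 72.9, 75.6 and 81.6 CPM at the late times, against 55.7, 59.0 and 66.4 CPM at the early times (log2 fold change 0.34 ± 0.06 SE). CCPG1, a receptor for autophagy of the endoplasmic reticulum, stood at 47.3, 50.3 and 57.1 CPM at the late times, against 37.5, 41.5 and 43.8 CPM at the early times (log2 fold change 0.32 ± 0.06 SE). Both were called with any 1 of the 4 times left out. ACVR1B, a type I receptor for activin, had 385, 419.8 and 451 CPM at the late times, against 288, 334 and 367 CPM at the early times. DVL2, a relay of Wnt signals, PKP4, a protein of cell junctions, and EI24, a protein of the endoplasmic reticulum, had log2 fold changes of 0.32, 0.33 and 0.39. The calls of ACVR1B, DVL2, PKP4 and EI24 were lost without the 44 h libraries (log2 fold changes 0.25, 0.25, 0.34 and 0.34), those of DVL2 and PKP4 also without 0 h (0.24 and 0.30), and that of EI24 also without 12 h (0.34). The gene models of CHD3, CCPG1 and EI24 share positions with neighbours on the same strand, so the split of reads between them is uncertain.

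**Figure D2:**
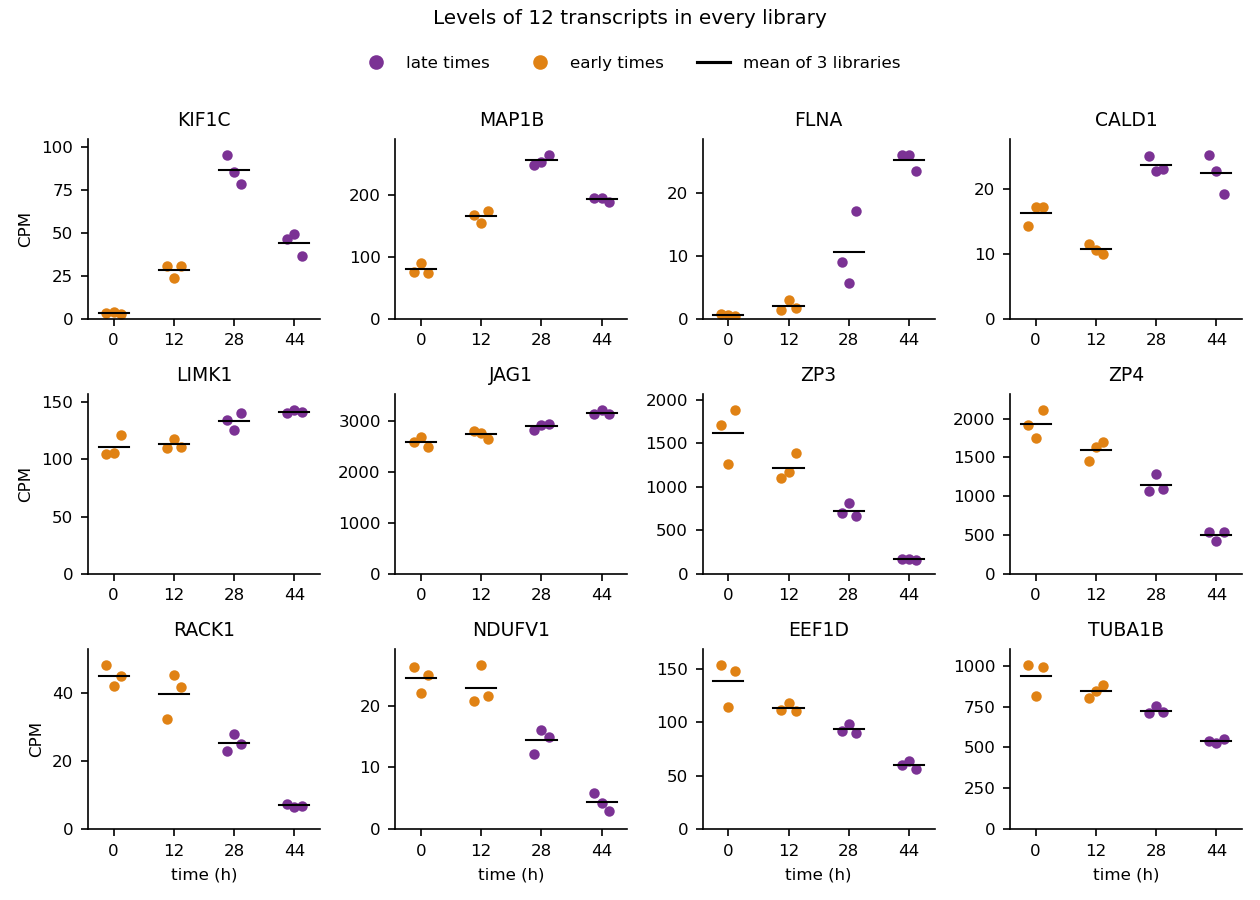
CPM of 12 transcripts in each of the 12 libraries, by time in hours; purple points are libraries of the late times, orange points those of the early times and black bars the means of 3. KIF1C and MAP1B peak at 28 h, FLNA climbs to 44 h, and the 6 transcripts from ZP3 to TUBA1B step down through 28 h to their lowest values at 44 h.

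Large rises also occurred in ANTXR1, ZEB2 and PEA15, which were scarce at 0 h, and a smaller one in PALM2AKAP2, which was less so. ANTXR1, a receptor that binds extracellular matrix and anthrax toxin, stood at 3.65, 8.09 and 12.2 CPM at the late times, against 0.202, 0.938 and 2.42 CPM at the early times (log2 fold change 3.03 ± 0.23 SE), with means of 0.450, 1.83, 11.4 and 4.89 CPM over the times. ZEB2, a zinc finger repressor of transcription, had means of 0.656, 7.61, 30.5 and 9.09 CPM and a log2 fold change of 2.89 ± 0.17 SE (4.65 without 12 h and 1.13 without 0 h), although the highest 12 h library (9.43 CPM) lay above the lowest 44 h library (6.53 CPM). PEA15, which binds the kinase ERK, had means of 0.759, 7.36, 12.6 and 4.97 CPM; its log2 fold change was 1.74 ± 0.18 SE, 3.38 without 12 h and 1.07 without 28 h, and without the 0 h libraries it was 0.10 (adjusted p = 0.85). PALM2AKAP2, an anchor of protein kinase A, had means of 18.7, 50.1, 69.8 and 35.3 CPM and a log2 fold change of 0.70 ± 0.07 SE. That change was 1.41 without 12 h and 1.19 without 44 h. It came to -0.01 without 0 h (adjusted p = 0.96 in edgeR) and 0.21 without 28 h (adjusted p = 0.0915), not called in either. In PEA15 and PALM2AKAP2 the 12 h mean lay above the 44 h mean, and the late times were not called against 12 h alone. Among the 40 genes that rose at least 2-fold, 17 were under 1 CPM at the late times and 28 were higher at 28 h than at 44 h.

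The falls included ZP3, a glycoprotein of the zona pellucida that binds sperm (ENSSSCG00000007691, chromosome 3, 9934761 to 9944941, minus strand). It stood at 161, 419.7 and 820.0 CPM at the late times, against 1103, 1326 and 1883 CPM at the early times, and every late library lay below every early one. The means were 1620.2, 1222, 727 and 169 CPM at 0, 12, 28 and 44 h, and the log2 fold change was -2.005 ± 0.10 SE with an adjusted p of 1.3e-08 in edgeR. It was -0.95 without the 44 h libraries and -3.06 without the 28 h libraries. Its partners ZP4 and ZP2 fell as well, with 823 CPM late against 1759.6 CPM early and 894 CPM late against 1518 CPM early, and log2 fold changes of -1.21 ± 0.07 SE and -0.81 ± 0.06 SE. The log2 fold changes of ZP4 and ZP2 were -0.61 and -0.41 without the 44 h libraries, and -1.81 and -1.21 without the 28 h libraries.

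NDUFAB1, the mitochondrial acyl carrier protein and a part of complex I (ENSSSCG00000010795, chromosome 3, 22619492 to 22635288, plus strand), had the largest log2 fold change among non-overlapping falls at or above 10 CPM, -2.83 ± 0.35 SE. It stood at 1.86, 9.77 and 24.6 CPM at the late times, against 32.6, 38.1 and 104.8 CPM at the early times. The highest early value was 12 h replicate 5, and the next was 40.9 CPM. Without that library the log2 fold change was -2.45 (adjusted p = 1.71e-13), and without the 44 h libraries the call was lost (-1.22, adjusted p = 0.294); it was -4.44 without those of 28 h. ETFB, which hands electrons from fatty acid oxidation to the respiratory chain, stood at 1.2, 3.35 and 7.02 CPM at the late times, against 10.1, 11.4 and 16.1 CPM at the early times (log2 fold change -2.08 ± 0.14 SE). ROMO1, a protein of the inner mitochondrial membrane, stood at 1.18, 4.17 and 7.46 CPM at the late times, against 9.66, 11.8 and 19.9 CPM at the early times (log2 fold change -2.03 ± 0.14 SE). SLIRP, which binds mitochondrial messenger RNA, stood at 1.43, 5.28 and 9.65 CPM at the late times, against 14.3, 15.2 and 19.4 CPM at the early times (log2 fold change -1.96 ± 0.12 SE). PET100, an assembly factor of cytochrome c oxidase, had 8.16 CPM late against 21.1 CPM early and a log2 fold change of -1.59 ± 0.14 SE. In these 4 late and early libraries did not overlap, and the log2 fold changes without the 44 h libraries were -0.99, -0.88, -0.87 and -0.76, against -3.18, -3.18, -3.04 and -2.42 without the 28 h libraries. All 5 code for mitochondrial proteins.

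Of the other 6 in the list of the 12 largest falls, 4 belong to making or serving ribosomes. RACK1, a scaffold on the small subunit (ENSSSCG00000029724, chromosome 2, 57279857 to 57284855, plus strand), stood at 6.59, 15.3 and 28.1 CPM at the late times, against 32.4, 43.7 and 48.2 CPM at the early times (log2 fold change -1.67 ± 0.09 SE, adjusted p = 5.81e-12 in edgeR). RPL26 and RPLP2, proteins of the large subunit, had 10.2 CPM late against 27.7 CPM early and 50.2 CPM late against 132 CPM early, with log2 fold changes of -1.79 ± 0.13 SE and -1.58 ± 0.09 SE. TBL3, a part of the complex that processes the small subunit's RNA, had 6.79 CPM late against 18.8 CPM early and -1.75 ± 0.12 SE. YIF1A, which acts in transport from the endoplasmic reticulum to the Golgi, had 6.76 CPM late against 18.9 CPM early and -1.89 ± 0.11 SE, and C15orf40 had 3.82 CPM late against 10.9 CPM early and -1.64 ± 0.14 SE. Without the 44 h libraries these 6 log2 fold changes were -0.74, -0.73, -0.82, -0.81, -0.76 and -0.95, and without the 28 h libraries -2.61, -2.85, -2.35, -2.69, -3.03 and -2.33, all called. The gene models of RACK1 and RPLP2 hold or border small nucleolar RNA genes and neighbours on the same strand.

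Gene lists were read against the background shares of 4.69% higher and 8.47% lower among all tested genes, whose median log2 fold change was 0.00. Cytosolic ribosomal protein genes, which code for the parts of the ribosome, fell most widely. Of 57 tested, 51 were called lower (89.5%) and 0 higher by edgeR, with a median of -0.62. An unadjusted p under 0.05 was reached by 1 member in the direction of a rise, DESeq2 called 1 higher and limma-voom 0. The large and small subunits behaved alike, with 26 of 29 and 24 of 27 members lower and medians of -0.61 and -0.62, and RACK1 was the remaining called member. Summed over the list, their transcripts took 2889.9, 3249.6 and 3858 CPM at the late times, against 4080.2, 4437 and 5349 CPM at the early times, and late and early did not overlap. RPL10A, as an example, had means of 68.0, 50.6, 35.3 and 14.5 CPM at 0, 12, 28 and 44 h, and a log2 fold change of -1.37 ± 0.08 SE (-0.73 without 44 h). The count was 28 of 57 without the 44 h libraries, where 1.09% of all tested genes were called lower and 0.339% higher. It was 50 without those of 28 h (all genes 11.1%), 51 without those of 12 h (8.69%), 44 without those of 0 h (4.45%) and 47 without 12 h replicate 5. Ribosomal protein genes have many processed copies in mammalian genomes, and how the authors assigned reads that match several genes is not given in the sources used here.

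Nuclear genes of the respiratory chain, which makes ATP in mitochondria, fell in 39 of 65 cases (60%), and had a median of -0.33. None rose by edgeR, DESeq2 or limma-voom, nor at an unadjusted p under 0.05. By complex, 19 of 33 genes of complex I fell, 6 of 7 of complex III, 8 of 10 of complex IV and 6 of 10 of the ATP synthase, and the 4 genes of complex II had a median of -0.12. NDUFV1, which carries the NADH-binding site of complex I, stood at 2.96, 9.03 and 16.0 CPM at the late times, against 20.7, 23.5 and 26.5 CPM at the early times (log2 fold change -1.58 ± 0.12 SE, -0.72 without 44 h and -2.44 without 28 h). NDUFA11, an accessory part of the same complex, had 7.04 CPM late against 15.9 CPM early and -1.25 ± 0.12 SE (-0.75 without 44 h). The sum over the list was 1808, 2020.4 and 2304 CPM at the late times, against 2331, 2519 and 2955 CPM at the early times. Without the 44 h libraries 6 of 65 were called lower, against 40 without 28 h, 45 without 12 h and 19 without 0 h. Without 12 h replicate 5 the count was 32.

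The 13 mitochondrially encoded genes were all lower at the late times, with a median of -0.48 and a range of -1.06 to -0.35, but 0 passed the test by edgeR or limma-voom, 4 reached an unadjusted p under 0.05 and DESeq2 called 2. Their sum was 4530, 7069 and 8487 CPM at the late times, against 6515, 10218 and 13676 CPM at the early times, with overlap. Genes for the ribosome inside mitochondria fell in 22 of 70 cases (31.4%, median -0.16), and 0 rose by edgeR, DESeq2 or limma-voom (1 at an unadjusted p under 0.05). MRPL2, a protein of its large subunit, had 7.70 CPM late against 13.9 CPM early (log2 fold change -0.89 ± 0.11 SE, -0.53 without 44 h). The count was 3 without the 44 h libraries and 9 without those of 0 h.

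**Figure D3:**
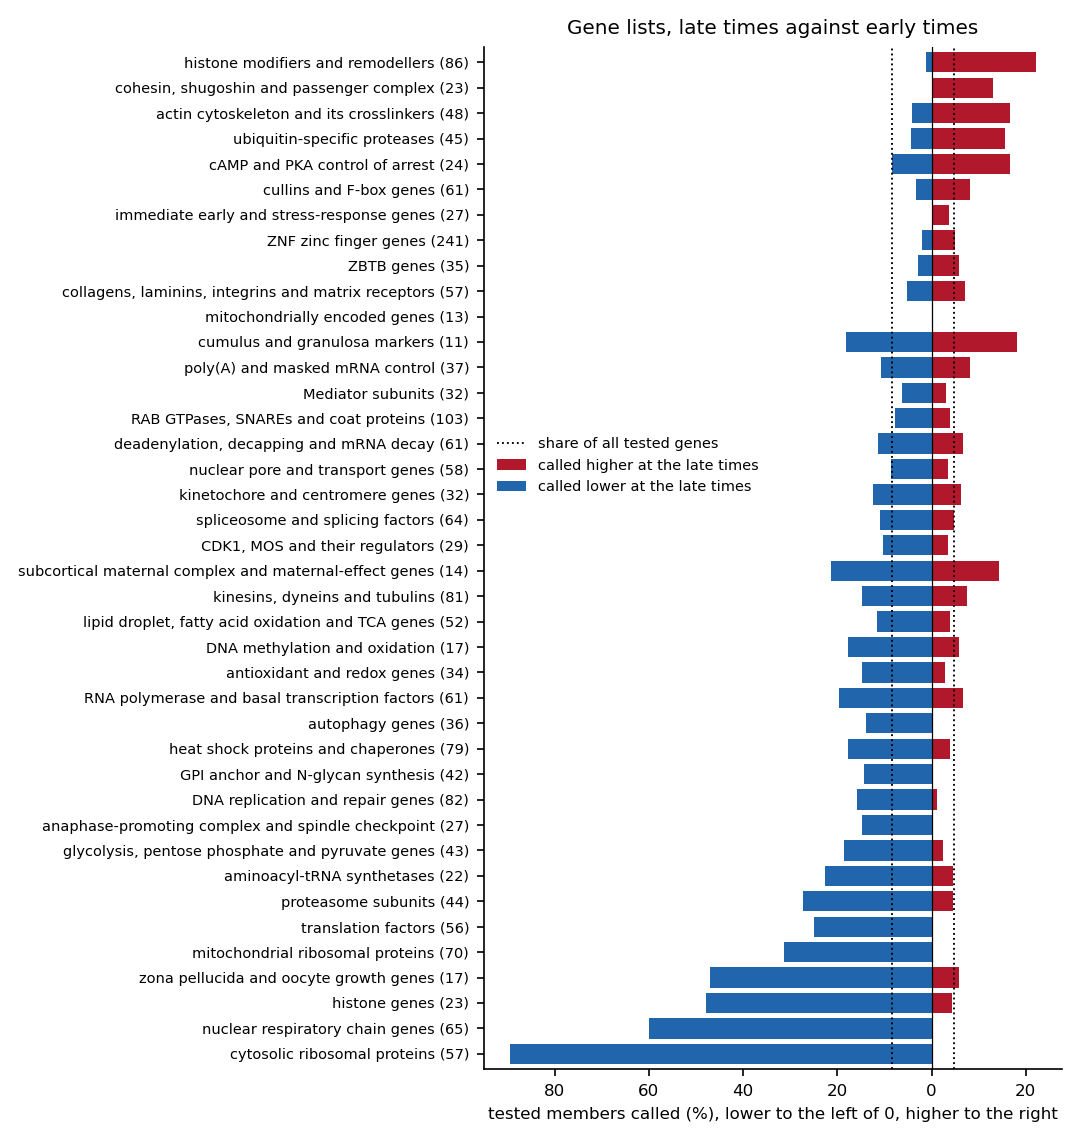
Share of the tested members of each gene list of 10 or more that edgeR called higher at the late times (red, right of 0) or lower (blue, left of 0), in percent, with the number tested in brackets; dotted lines mark the shares of all tested genes, 4.69% higher and 8.47% lower. The bars of cytosolic ribosomal proteins (89.5% lower) and nuclear respiratory chain genes (60% lower) reach furthest left, and that of histone modifiers (22.1% higher) furthest right.

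Translation factors, which start and drive protein synthesis, fell in 14 of 56 cases (25%), with a median of -0.06, and 0 rose by edgeR, DESeq2 or limma-voom (2 at an unadjusted p under 0.05). EEF1D, which recharges the elongation factor eEF1A, stood at 56.1, 77.1 and 98.6 CPM at the late times, against 110.1, 116 and 153 CPM at the early times (log2 fold change -0.74 ± 0.06 SE). EIF3M, a subunit of the initiation factor eIF3, stood at 135, 189 and 259 CPM at the late times, against 265, 292 and 323 CPM at the early times (log2 fold change -0.65 ± 0.05 SE), and 5 of 11 eIF3 genes fell. Without the 44 h libraries 5 of the 56 fell, with log2 fold changes of -0.42 for EEF1D and -0.28 for EIF3M. Of 22 aminoacyl-tRNA synthetase genes, which load amino acids onto tRNA, 5 fell (22.7%), MARS1 for methionine among them, with 69.3 CPM late against 127 CPM early (-1.01 ± 0.07 SE, -0.38 without 44 h and -1.63 without 28 h). With 44 h left out 3 of these fell.

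Proteasome genes, whose products degrade marked proteins, fell in 12 of 44 cases (27.3%) and rose in 2. PSMB7, a catalytic subunit, stood at 18.0, 29.4 and 44.6 CPM at the late times, against 51.6, 53.8 and 57.7 CPM at the early times (log2 fold change -0.91 ± 0.07 SE, -1.45 without 28 h), while PSMD12 and PSMD11 of the regulatory cap rose by 0.22 and 0.20. Without the 44 h libraries 1 of 44 fell (PSMB7, -0.37), and PSMD12 and PSMD11 lost their calls (0.17 and 0.09), as they did without the 0 h libraries (0.19 and 0.14). Chaperone genes fell in 14 of 79 cases (17.7%). HSPA4 and HSPA8, chaperones of the HSP70 class, had 175 CPM late against 270.4 CPM early and 683 CPM late against 951 CPM early, and log2 fold changes of -0.67 ± 0.06 SE and -0.50 ± 0.05 SE. With 44 h left out 2 chaperone genes fell, HSPA4 among them (-0.33), and HSPA8 was no longer called (-0.22).

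Genes of the RNA polymerases and basal transcription factors fell in 12 of 61 cases (19.7%) and rose in 4. TAF6L, found in histone acetyltransferase complexes, had 39.3 CPM late against 66.3 CPM early (-0.86 ± 0.07 SE), and TAF4 of the factor TFIID rose to 210.2 CPM late against 183 CPM early (0.20 ± 0.05 SE). When 44 h was left out 2 fell and 1 rose, and both TAF6L and TAF4 lost their calls (-0.30 and 0.12); without 0 h 8 fell and TAF4 was not called (0.13). The 4 rises became 2 without any 1 of 0 h replicate 2, 12 h replicates 3 and 5, 28 h replicate 4 or 44 h replicates 1, 2 and 4. Splicing genes fell in 7 of 64 cases (10.9%), near the share of all genes, and rose in 3, with a median of -0.02. Among the 7, SRSF6, a splicing regulator, had 29.4 CPM late against 51.4 CPM early (-0.88 ± 0.08 SE). SNRPD2, a core protein of the spliceosome, had 10.9 CPM late against 20.6 CPM early (-0.94 ± 0.11 SE). Those 2 made up the falls without the 44 h libraries (-0.40 and -0.62).

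Among genes of the oocyte's own growth and coat, 8 of 17 fell (47.1%) and 1 rose. Beside the 3 zona genes, the fallers were BMP15 and GDF9, growth factors that the oocyte sends to its cumulus cells, FIGLA, a transcription factor that switches on zona genes, KIT, the receptor for stem cell factor, and RSPO2, a secreted activator of Wnt signalling. BMP15 stood at 3840.3, 3989.9 and 4182 CPM at the late times, against 4123, 4653 and 5329 CPM at the early times (log2 fold change -0.23 ± 0.05 SE), and GDF9 at 1059.5, 1164 and 1264 CPM at the late times, against 1253, 1407 and 1556 CPM at the early times (log2 fold change -0.28 ± 0.04 SE, -0.19 without 0 h). JAG1, a ligand of Notch receptors, rose, with 2825, 3039 and 3212 CPM at the late times, against 2488, 2665 and 2809 CPM at the early times and no overlap (log2 fold change 0.19 ± 0.04 SE). Without the 44 h libraries the 3 zona genes kept their calls and BMP15, GDF9 and JAG1 did not (-0.22, -0.17 and 0.12); without the 0 h libraries BMP15 and JAG1 lost theirs (-0.13 and 0.15). The list summed to 10327, 11149 and 12151 CPM at the late times, against 12894, 14126 and 16175 CPM at the early times.

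Maternal-effect genes moved in both directions. OOEP, a member of the subcortical maternal complex, had 71.1, 99.1 and 122 CPM at the late times, against 123.1, 136 and 173 CPM at the early times (log2 fold change -0.56 ± 0.06 SE) and NLRP5, which anchors the same complex, had 367 CPM late against 446 CPM early (-0.29 ± 0.05 SE). ZAR1 and ZAR1L, which bind stored messages, had 198 CPM late against 243 CPM early and 803 CPM late against 997 CPM early, with log2 fold changes of -0.30 ± 0.06 SE and -0.33 ± 0.05 SE. BTG4, which brings the CCR4-NOT deadenylase to maternal messages, was called higher, with 449 CPM late against 392 CPM early (0.19 ± 0.05 SE), and the 11 CCR4-NOT genes themselves had a median of 0.04. NPM3, a histone chaperone relative, had 29.8 CPM late against 23.8 CPM early (0.31 ± 0.07 SE). With 44 h left out all 6 lost their calls, with log2 fold changes of -0.27 for OOEP, -0.17 for NLRP5, -0.15 for ZAR1, -0.13 for ZAR1L, 0.03 for BTG4 and 0.06 for NPM3. ZAR1 also lost its call without 0 h (-0.21), and BTG4 and NPM3 without 12 h (0.15 and 0.26). Leaving out 28 h gave -0.85 for OOEP, -0.53 for ZAR1L and 0.34 for BTG4. Exosome genes, whose products degrade RNA from the 3' end, fell in 4 of 10 cases, EXOSC9 with 58.5 CPM late against 85.7 CPM early (-0.57 ± 0.07 SE, -0.35 without 44 h). They belong to a list of 61 deadenylation, decapping and decay genes, whose median was 0.02. Of that list 7 fell (11.5%) and 4 rose (6.56%), near the shares of all genes. Its rises ranged from 1 to 9 when a library was dropped. Without the 44 h libraries EXOSC9 was its 1 fall.

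Among CDK1, the kinase that drives entry into meiotic division, and its regulators, 3 of 29 fell (10.3%), near the share of all genes, and the median was 0.00. The 3 were MAP2K2, CKS2, a small partner of CDK1, and CDK1 itself, with late levels of 84.3 CPM against 95.9 CPM early (-0.18 ± 0.06 SE, adjusted p = 0.0399 in edgeR). Of these MAP2K2 alone was called without 44 h, and likewise without 0 h. CCNB1, cyclin B1, stood at 535, 556 and 571 CPM at the late times, against 507, 560.3 and 584 CPM at the early times, so the ranges overlapped almost in full (log2 fold change 0.00 ± 0.04 SE, adjusted p = 0.9997 in edgeR). MOS, the kinase that holds the egg at metaphase, had 759 CPM late against 835 CPM early (-0.14 ± 0.05 SE, adjusted p = 0.0558, not called). It was called, lower, by DESeq2, by limma-voom and with either other filter on low counts, when 0 h replicate 3 or 12 h replicate 1 or 5 was dropped, and without the 28 h libraries (-0.28), and stood at -0.01 without those of 44 h. CPEB1, which controls poly(A) tails, had 226 CPM late against 230.3 CPM early (-0.03 ± 0.04 SE, not called). WEE2, the oocyte kinase that restrains CDK1, was called higher at 0.14 ± 0.04 SE, with 2267 CPM late against 2062 CPM early, and lost the call without 44 h (0.08), without 0 h (0.08) and without any 1 of 12 h replicates 3 and 5, 28 h replicates 3 and 4, and 44 h replicates 1 and 4 (0.13 in each). MAP2K2, a kinase of the MAP kinase cascade, had 14.0, 18.9 and 24.4 CPM at the late times, against 27.96, 30.1 and 31.8 CPM at the early times (log2 fold change -0.68 ± 0.07 SE, -0.37 without 44 h).

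In the spindle, TUBA1B, an alpha-tubulin, stood at 529, 632 and 752 CPM at the late times, against 805, 863 and 1004 CPM at the early times (log2 fold change -0.50 ± 0.05 SE, -0.29 without 44 h). The list of kinesins, dyneins and tubulins had 12 falls and 6 rises among 81 genes, and 1 fall and 3 rises without the 44 h libraries. SPC24, which joins kinetochores to microtubules, stood at 83.0, 100.9 and 125 CPM at the late times, against 144, 162 and 207 CPM at the early times (log2 fold change -0.69 ± 0.06 SE, -0.45 without 44 h). SKA1, of another kinetochore complex, had 279.8 CPM late against 366 CPM early (-0.44 ± 0.07 SE), and lost its call without 44 h (-0.03) and without 0 h (-0.29), against -0.85 without 28 h. ESPL1, separase, which opens the cohesin rings, and BUB1, a checkpoint kinase, had 430.2 CPM late against 515 CPM early and 103.1 CPM late against 126 CPM early, called at -0.27 ± 0.05 SE and -0.30 ± 0.05 SE and not without 44 h (-0.10 and -0.17). PMF1, a kinetochore protein, had 86.0 CPM late against 38.4 CPM early (1.14 ± 0.22 SE), but its model overlaps SMG5 and BGLAP on the same strand, and the call was lost without 44 h (0.74) or 0 h (0.83). The kinetochore list had 4 falls (12.5%) and 2 rises (6.25%) among 32 genes, with a median of 0.01. The list of the anaphase-promoting complex and checkpoint had 4 falls among 27 (14.8%), with a median of -0.03. Without the 44 h libraries 1 and 0 members of these lists fell. In the list of cohesin, shugoshin and the passenger complex 3 of 23 rose (13.0%), against 0 without 44 h or without 0 h. In the actin list 8 of 48 rose (16.7%), FLNA and CALD1 among them, and 2 fell, MSN, which links actin to the membrane (9.36 CPM late against 15.1 CPM early, -0.91 ± 0.12 SE, -0.06 and not called without 44 h, -1.75 without 28 h), and MYL6, a light chain of myosin (84.6 CPM late against 131 CPM early, -0.63 ± 0.08 SE, -0.41 without 0 h). After 44 h was left out 5 actin genes rose.

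Chromatin genes split by kind. Histone genes fell in 11 of 23 cases (47.8%, median -0.38), among them H2BE1, a variant of histone H2B, with 1.42, 4.18 and 9.33 CPM at the late times, against 9.22, 12.3 and 17.2 CPM at the early times (log2 fold change -1.79 ± 0.14 SE, -0.67 without 44 h and -2.91 without 28 h). Left without 44 h, 3 histone genes fell. The messages of most histone genes end without a poly(A) tail. Histone modifiers and remodellers, which write or read marks on histones, rose in 19 of 86 cases (22.1%) and fell in 1, with a median of 0.09. CHD3, given above, had the smallest adjusted p, and SMARCC2, a part of the SWI/SNF remodeller, had 253 CPM late against 216 CPM early (0.23 ± 0.05 SE); KAT8, a histone acetyltransferase, fell, with 81.5 CPM late against 95.6 CPM early (-0.23 ± 0.05 SE). The 19 rises became 1 without the 44 h libraries (CHD3) and 2 without those of 0 h, against 25 without 28 h and 20 without 12 h. Dropping 28 h replicate 4 left 8 rises, dropping 12 h replicate 5 left 9, dropping 0 h replicate 2 or 28 h replicate 3 left 11, and dropping 12 h replicate 3 or 44 h replicate 2 left 12. SMARCC2 and KAT8 had 0.17 and -0.15 without 44 h, and 0.15 and -0.18 without 0 h, not called in either.

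DNMT1, the maintenance DNA methyltransferase, was the most abundant named transcript, at 28207, 33487 and 39456 CPM at the late times, against 33286, 37388 and 42595 CPM at the early times. Its log2 fold change of -0.16 ± 0.05 SE passed the test at an adjusted p of 0.0399, but not without 44 h (-0.05), without 12 h (-0.07) or without any 1 of 0 h replicates 2 and 3, 12 h replicates 1 and 5, 28 h replicates 2 and 3, and 44 h replicates 1 and 2 (-0.17 to -0.13). It was -0.26 without 0 h and -0.27 without 28 h. The call of DNMT1 was also lost with upper-quartile scaling, limma-voom, the replicate block and 1 mean for each side. UHRF1, which guides DNMT1 to DNA, rose, with 617 CPM late against 529 CPM early (0.22 ± 0.05 SE), while its relative UHRF2 fell, with 3363 CPM late against 3775 CPM early (-0.17 ± 0.04 SE) and no overlap. Both lost their calls without 44 h (0.13 and -0.15), and UHRF1 also without 0 h (0.13). TET3, which oxidizes methylated DNA, had 502 CPM late against 449.6 CPM early and was not called (0.15 ± 0.05 SE, adjusted p = 0.0641 in edgeR). It was called, higher, by DESeq2, with library totals, with no filter, with the replicate block and when 0 h replicate 3, 12 h replicate 1 or 28 h replicate 2 was dropped. Leaving out a time gave 0.33 without 28 h and 0.25 without 12 h, both called, against 0.05 without 0 h and -0.02 without 44 h.

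Metabolic genes gave smaller counts. In glycolysis, the pentose phosphate pathway and pyruvate use, 8 of 43 fell (18.6%). With 44 h left out 1 of these genes fell, ARRDC4, and with 0 h left out 5. ARRDC4, an arrestin that limits glucose uptake, had 9.82, 13.5 and 21.1 CPM at the late times, against 20.5, 39.1 and 48.0 CPM at the early times (log2 fold change -1.44 ± 0.12 SE, -1.07 without 44 h). PDK4, which shuts down the pyruvate dehydrogenase complex, had means of 1.42, 10.7, 1.47 and 1.16 CPM at 0, 12, 28 and 44 h. Its log2 fold change of -1.58 ± 0.29 SE rested on the 12 h libraries, and came to -0.13 without them and -1.42 without the 44 h libraries, not called in either, and to -3.03 without 0 h. PLIN2, a coat protein of lipid droplets, had 122.95, 167 and 184 CPM at the late times, against 187, 199 and 226 CPM at the early times (log2 fold change -0.35 ± 0.06 SE), and lost its call without 44 h (-0.14, against -0.55 without 28 h). GSTM3, a glutathione transferase, had 66.7, 75.9 and 85.9 CPM at the late times, against 96.8, 105.2 and 124 CPM at the early times (log2 fold change -0.51 ± 0.06 SE, -0.37 without 44 h). ADCY6 and ADCY3, adenylyl cyclases that make the cAMP holding the oocyte in arrest, moved apart: ADCY6 had 97.1 CPM late against 149.6 CPM early (-0.64 ± 0.06 SE, -0.40 without 44 h) and ADCY3 431 CPM late against 365 CPM early (0.24 ± 0.04 SE), whose call was lost without 44 h (0.16) and without 0 h (0.18).

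**Figure D4:**
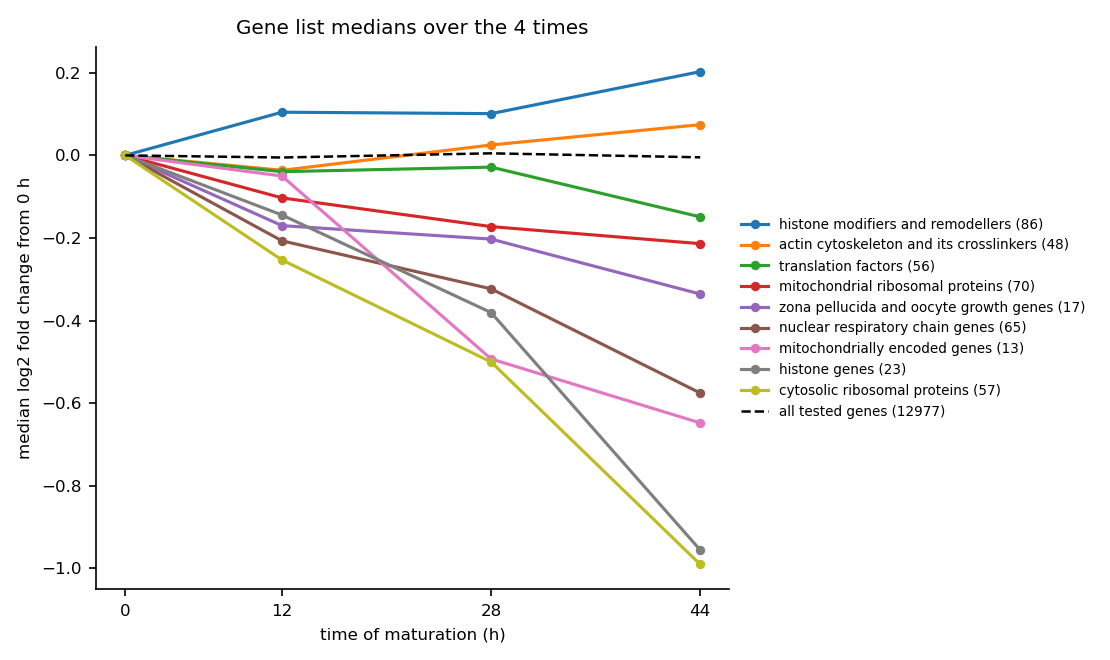
Median log2 fold change from 0 h of the members of 9 gene lists and of all 12977 tested genes (dashed), against time in hours, with the number of members in brackets. Cytosolic ribosomal proteins step down to -0.25, -0.50 and -0.99 at 12, 28 and 44 h and nuclear respiratory chain genes to -0.21, -0.32 and -0.58, histone genes fall mostly after 28 h, and the median of all genes stays within 0.01 of 0.

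How the difference between late and early times was built up was read from 2 further contrasts of the same fit. The mean step within them averages the change over the first interval (12 h minus 0 h) and over the last (44 h minus 28 h), and it called 680 genes (5.24%), 171 higher (1.32%) and 509 lower (3.92%). Among its 4 largest rises were FLNA (1.52 ± 0.32 SE) and PDK4 (1.28 ± 0.29 SE), and among its 4 largest falls ROMO1 (-1.45 ± 0.14 SE), H2BE1 (-1.34 ± 0.14 SE), ETFB (-1.26 ± 0.14 SE) and ZP3 (-1.26 ± 0.09 SE). FLNA was not called when any 1 of the 0 h libraries or 28 h replicate 2 was dropped, nor PDK4 when 0 h replicate 4, 28 h replicate 3 or 44 h replicate 1 was. Of the 57 cytosolic ribosomal protein genes 44 were lower in this contrast, and so were 14 of 65 nuclear respiratory chain genes. The count of 680 depended on single libraries. Leaving out 0 h replicate 2 gave 405, leaving out 12 h replicate 1 gave 451, and leaving out 28 h replicate 2 or 3 gave 423 or 403. It was 412 when 44 h replicate 1 was dropped and 1148 when 0 h replicate 3 was. The median log2 changes of the 1099 genes called lower were -0.12, -0.17 and -0.36 for the steps from 0 to 12 h, 12 to 28 h and 28 to 44 h, and those of the 609 called higher were 0.10, 0.09 and 0.13. The first interval is shorter than the other 2.

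The last step minus the first (44 h minus 28 h, less 12 h minus 0 h) tests whether the change differed between the 2 intervals. It called 236 genes (1.82%), 7 higher (0.0539%) and 229 lower (1.76%). The lowest were transcripts that climbed early and dropped back late. ZEB2 changed by 3.52 on the log2 scale from 0 to 12 h and by -1.74 from 28 to 44 h, a difference of -5.27 ± 0.33 SE. PEA15 and KIF1C followed, with differences of -4.62 ± 0.35 SE and -4.004 ± 0.19 SE, and PALM2AKAP2 and MAP1B had -2.41 ± 0.14 SE and -1.45 ± 0.10 SE. NDUFAB1 had a difference of -3.78 ± 0.69 SE, which was -3.003 (adjusted p = 2.34e-09) without 12 h replicate 5 and was not called without any 1 of the 9 libraries of the other 3 times. At the other end, MADD, a regulator of RAB3, BTG4 and NPM3 changed by -0.13, -0.08 and -0.10 in the first interval and by 0.36, 0.31 and 0.50 in the last, differences of 0.49 ± 0.10 SE, 0.39 ± 0.09 SE and 0.59 ± 0.15 SE. BTG4 lost that call when 0 h replicate 2, 12 h replicate 5, 28 h replicate 4 or 44 h replicate 2 was dropped (adjusted p 0.0527 to 0.0961). NPM3 lost it when any 1 of 9 libraries was dropped, all but 0 h replicate 3, 12 h replicate 5 and 44 h replicate 4 (0.0573 to 0.126). PTMA, prothymosin alpha, dropped by 0.46 at first and then changed by 0.09, a difference of 0.54 ± 0.14 SE that was not called when any 1 library but 0 h replicate 3 was dropped (adjusted p 0.0566 to 0.167). Of the cytosolic ribosomal protein genes 18 of 57 were lower in this contrast, and their median steps were -0.25 in the first interval and -0.56 in the last.

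The times on each side set how many genes were called. Between neighbouring times the test called 4 genes lower (0.0308%) and 23 higher (0.177%) from 0 to 12 h, 20 lower (0.154%) and 14 higher (0.108%) from 12 to 28 h, and 558 lower (4.3%) and 51 higher (0.393%) from 28 to 44 h. With 28 h alone against 0 and 12 h the test called 185 genes (1.43%), 44 higher (0.339%) and 141 lower (1.09%), and 182 of these were among the 1708. With 44 h alone it called 2451 (18.9%), 1006 higher (7.75%) and 1445 lower (11.1%). With both late times against 0 h alone the count was 1831 (14.1%), 703 higher (5.42%) and 1128 lower (8.69%), and against 12 h alone 666 (5.13%), 88 higher (0.678%) and 578 lower (4.45%). Each of these 4 contrasts has 3 libraries on 1 side and 6 on the other, they share libraries, and the fit behind them held all 12. Of the 149 named genes called between late and early times, 48 were called in all 4, 9 higher and 39 lower. The 9 were FLNA, KIF1C, MAP1B, CALD1, CHD3, CCPG1, LIMK1, ANTXR1 and ZEB2, and ZP2, ZP3, ZP4, RACK1, RPLP2, RPL10A, ETFB, ROMO1, SLIRP, NDUFV1 and EEF1D were among the 39. Fitted with 1 mean for both late and 1 for both early times, where their differences count as spread, the test called 688 genes. By that fit 79 named genes lost their calls, among them KIF1C, MAP1B, ZEB2, ZP2, ZP4 and 10 of the 12 largest falls, all but RPLP2 and C15orf40.

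**Figure D5:**
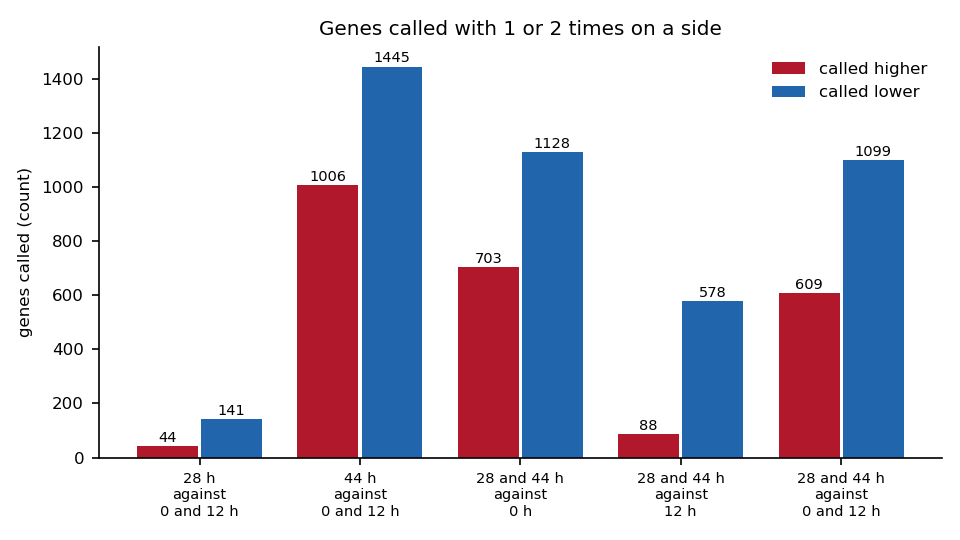
Number of genes called higher (red) and lower (blue) by edgeR with the times named under each pair of bars, the later side first. With 28 h alone on the late side 44 and 141 genes were called, with 44 h alone 1006 and 1445, and with both 609 and 1099.

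The calls followed level and length. Of 2474 genes between 100 CPM and 10 times that level, 14.7% rose and 8.41% fell, and of 5343 genes between 10 and 100 CPM, 3.24% rose and 12.2% fell. Across the 12977 genes, which are not independent replicates, the log2 fold change rose with gene model length (Spearman correlation 0.18). Among the shortest 25% of gene models 14.6% of genes fell and 2.19% rose, and in the longest 5.58% fell and 6.56% rose. Genes of the ribosomal and respiratory lists are short, and without the ribosomal, respiratory, histone and proteasome lists 12.5% of 3066 genes of the same size class fell. The part of length in the list results was not tested, nor that of level in which changes were called.

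Markers of cumulus and granulosa cells, which surround the oocyte in the follicle, summed to 253, 286 and 322 CPM at the late times, against 273, 296 and 336 CPM at the early times. All marker sums in this paragraph, and the cut at 1 CPM, were scaled by library total alone, without the TMM factor. Taken by time, the sum ranged over 273 to 336 CPM in the libraries of 0 h, 292 to 315 CPM in those of 12 h, 304 to 322 CPM in those of 28 h and 253 to 267 CPM in those of 44 h, so all 3 libraries of 44 h lay below the other 9. Of 14 such markers in the table, 9 were under 1 CPM late and early, and FSHR, the receptor for follicle-stimulating hormone, had 0 counts in all 12 libraries. AMH, a hormone of granulosa cells, and VCAN had the highest levels, with AMH at 184 CPM late against 215 CPM early (-0.23 ± 0.07 SE); its call was lost without 12 h (-0.19), 0 h (-0.27) or 44 h (-0.07) and when 0 h replicate 4, 12 h replicate 3, 28 h replicate 2 or 44 h replicate 1 or 2 was dropped. INHBA, a subunit of activin, had 6.45 CPM late against 2.76 CPM early (1.33 ± 0.20 SE, 0.63 and not called without 0 h, 2.04 without 12 h), and VCAN, versican, 87.1 CPM late against 74.9 CPM early (0.22 ± 0.05 SE), whose call was lost without 28 h (0.13) and 0 h (0.20). The 9 oocyte markers summed to 9114, 10051 and 11334 CPM at the late times, against 11815, 13184 and 15807 CPM at the early times, 8 of them lower. Blood markers summed to 39.7, 43.6 and 52.0 CPM late against 45.9, 52.6 and 53.4 CPM early, and stroma markers to 21.9, 25.3 and 28.7 CPM late against 27.8, 29.1 and 31.6 CPM early. The part of other cells' RNA in the results was not tested.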

How the data were processed

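Total RNA of oocytes freed of cumulus was purified with an AllPrep kit, made into libraries with the stranded SMARTer Pico kit and sequenced on a NovaSeq, per the labels' protocols. The submitters' processing notes name the build Sscrofa11.1 and DESeq2; aligner, strand setting and treatment of multi-mapped reads are not given in the sources used here. Per the file headers, the deposited table holds total counts of each gene in each library, and these were tested as deposited. The deposited RPKM values, so named per the file headers, are scaled for length and depth and were used only to rank gene model length. The deposited TPM, CPM, fold change and p-value columns were not used.

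Of 28965 genes 16246 had a symbol, 777 more were named from an Ensembl table and 11942 kept their identifier. None of 66 pairs of libraries held identical counts. Genes were kept by filterByExpr (minimum count 10), given TMM factors (0.979 to 1.02), and modelled in edgeR 4.0.16 (R 4.3.3) with 1 mean per time and robust estimation over 12 libraries (8 residual degrees of freedom, biological coefficient of variation 10.6%). Contrasts went through its quasi-likelihood F test, with p-values adjusted over 12977 genes by Benjamini and Hochberg and a threshold of 0.05; SE is the log2 fold change over the square root of F. At these totals counting error is smaller for genes at or above 10 CPM than for scarcer ones. Several named falls, such as ETFB and ROMO1, reached 10 CPM only on the early side. They stood well below it at the late times, where counting error weighs more. The code was tested on simulated counts.

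Named genes are, among called genes with a symbol, at least 10 CPM on the higher side and no overlap, the 12 largest rises and 12 largest falls; up to 2 rises and 2 falls of each of 43 lists by smallest adjusted p; the 4 largest of each direction in the other 2 contrasts at 10 CPM; and a panel of maternal genes, of which 1 is not analysed here. Not all genes that the rule names are reported here. FIGLA, KIT, RSPO2 and CDK1, members of described lists, were named after their values were seen. Members and lists were chosen with earlier results of these data known, and 5 genes caught by a name pattern without belonging (HSPG2, HSPBAP1, RPL7L1, RPL22L1 and RPL39L) were taken out of 2 lists after values were seen. Of 155 named genes, 62 overlap another annotated gene, which makes their counts uncertain. Alternatives were RLE, upper-quartile and library-total scaling, and dropping the filter or raising it to 1 CPM in 3 libraries. In another, mitochondrially encoded genes were removed before filter, scaling and test, which left 12964 genes tested. Others were limma-voom (limma 3.58.1), DESeq2 1.42.0, non-robust estimation, a replicate block, 1 mean for each side and each library left out. Each time was also given no weight in the contrast, with its libraries kept in the filter, scaling and fit.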

Additional observations from a re-analysis of the deposited data

Results flagged for a closer look

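A total of 318 sets of 6 libraries, late or early, were examined. They covered each named gene, the total count, the shares of mitochondrially encoded and of the 10 top genes, and the number of genes with a count. In 8 sets (2.52%) the gap of the highest library to the next exceeded 0.625 of the whole range, Dixon's 95% limit for 6 values. For 6 values of 1 population chance alone gives about 1 in 20 such sets. Each set here pools 2 times with their own means, so that rate need not hold. In USP1 the flagged library was a late one, 44 h replicate 4, at 361.5 CPM. The other 7 lay at the early times. BTG4 (442 CPM), GABARAP (13.1 CPM) and MED8 (57.4 CPM) were highest in 0 h replicate 2, TBL3 (26.8 CPM) in 0 h replicate 4 and CS (419 CPM) in 12 h replicate 1. NDUFAB1 (104.8 CPM) and YIF1A (23.3 CPM) were highest in 12 h replicate 5, the library that stood apart on the second dimension and had the highest share of mitochondrially encoded counts.

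The change over the last interval (28 to 44 h) differed from that over the first (0 to 12 h) in 236 genes by the test of the difference itself. The positive extremes on the log2 scale were NPM3 (0.59), PTMA (0.54), MADD (0.49) and BTG4 (0.39), and the negative extremes ZEB2 (-5.27), PEA15 (-4.62), KIF1C (-4.004) and NDUFAB1 (-3.78).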

How the results depend on the processing

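The count of genes called between late and early times was 1708. Scaling, filter, DESeq2, limma-voom, no robust estimation and the replicate block gave 1489 to 2038. It moved by more than 1.5 times with 1 mean for each side (688; 79 of 155 named genes lost their call), with 12 h alone on the early side (666) and with 28 h alone on the late side (185). Leaving out each library gave 1249 to 2031. The count for the mean step within late and early times was 680; it was 1040 with DESeq2, with 61.5% of calls lower against 74.9% in edgeR, 238 (95.4% lower) with the replicate block, and 403 to 1148 without each library. The count for the last step less the first was 236, and 162 to 253 without each library. The cause of these moves was not tested. Whether equal replicate numbers mark shared batches is not given, and the main fit did not pair the libraries by number. Same-numbered libraries of different times had correlated deviations of -0.01 to 0.13 (median 0.05, 9 of 10 pairs above 0), against -0.11 to 0.07 (median -0.02) in 44 other pairs. Of 11 libraries, 7 correlated best with one of their own number, a hint of pairing from the data and not the design. With the replicate block 1489 genes were called between late and early times and 178 for the last step less the first, and 21 of 155 named genes lost their call. Among named genes called between late and early times 1 reversed, PALM2AKAP2, at -0.0125 (adjusted p = 0.96) with 12 h alone on the early side. Of 86 list counts, 41 moved by more than 1.5 times without at least 1 library; the largest of these was the 19 rises of histone modifiers. Genes under 1 CPM are limited by counting error.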

Other observations

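Several gene groups outside the comparisons above are given as counts, read against 4.69% higher and 8.47% lower among all tested genes. Of 82 genes for DNA replication and repair, 13 fell (15.9%; 11 to 15 without each library, 1 without the 44 h libraries). RFC3, a subunit of the clamp loader, had 130 CPM as its median at the late times and 182 CPM at the early times, with no overlap (log2 fold change -0.45 ± 0.05, SE; -0.28 without 44 h). Of 58 nuclear pore and transport genes, 5 fell (8.62%), and AAAS, a pore protein, had medians of 97.96 CPM late and 153 CPM early (-0.69 ± 0.06, SE; -0.30 without 44 h), again with no overlap. Genes for GPI anchors and N-glycans fell in 6 of 42 cases (14.3%; 3 without 12 h replicate 5, and PIGX and PIGP not called without 44 h). PIGX, of the enzyme that adds the first mannose of GPI anchors, had medians of 10.3 CPM late and 23.6 CPM early (-1.40 ± 0.11, SE; -0.45 and not called without 44 h).

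Of 45 ubiquitin-specific proteases, 7 rose (15.6%) and 38 had a positive log2 fold change. Leaving out 28 h replicate 3 or 12 h replicate 5 left under 2 rises, and leaving out 28 h replicate 4 left 2. It was 3 or 4 when 0 h replicate 2 or 4, 12 h replicate 1, 28 h replicate 2 or any 1 of the 44 h libraries was dropped. All 7 lost their calls without the 44 h libraries and also without those of 0 h, while 12 rose without those of 28 h. Zinc finger genes of the ZNF series rose in 12 of 241 cases (4.98%), close to the share of all genes, and in 7 when 28 h replicate 3 or 44 h replicate 1 was dropped. CUL7, a scaffold of ubiquitin ligases, had medians of 21.3 CPM late and 32.2 CPM early (-0.63 ± 0.08, SE; -0.41 without 44 h). CD74, the invariant chain of MHC class II, had medians of 8.77 CPM late and 17.8 CPM early with no overlap (-1.05 ± 0.11, SE). PTPRC, a marker of all white blood cells, stood at medians of 0.712 CPM late and 0.440 CPM early, scaled by library total without the TMM factor.

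Genes that kept only an identifier made up 1221 of those tested, and 34 rose (2.78%) and 117 fell (9.58%).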
